A study of Homo sapiens with 9 samples.

Results

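Collagens, laminins and integrins are the genes through which an epithelial cell builds its basement membrane and holds on to it. The set described here holds the protein-coding genes of GENCODE 29 whose names are those of collagen alpha chains, laminin alpha, beta and gamma chains or integrin alpha and beta subunits, and whose estimated reads summed over all 9 libraries came to at least 90. Of 56823 genes, 76 carried such a name and 45 met the minimum: 16 of 44 collagens, 11 of 12 laminins, 10 of 12 integrin alpha subunits and 8 of 8 integrin beta subunits. The members were thus chosen by their summed reads in the same libraries, so the levels below are a description, and no test uses them. The 45 genes together took 0.368% of all reads.

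Collagens are trimers of chains wound into a triple helix, which form fibrils, networks or membrane-anchored rods. Laminins are heterotrimers of an alpha, a beta and a gamma chain that polymerise at the base of epithelial cells, and integrins are membrane heterodimers of an alpha and a beta subunit that bind these proteins outside the cell and couple them to actin or keratin filaments inside. In lung epithelium laminins and the integrins ITGA3 with ITGB1 and ITGA6 with ITGB4 anchor cells to the basement membrane, and ITGAV with ITGB6 binds the latent form of TGF-beta.

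The cells were H1975, an established human lung adenocarcinoma line, carrying dCas9-KRAB under a tetracycline-responsive (TRE) promoter. This catalytically dead Cas9 is fused to a KRAB domain and silences the site to which its guide RNA leads it. There were 3 groups of 3 libraries: a non-targeting guide (control), gRNA1 and gRNA2, the last 2 directed at the long noncoding RNA TRIDENT, and all 9 samples, controls included, had doxycycline (4 ug/ml, 72 h) and were kept in G418 and puromycin. The labels do not say whether a line came from a single clone or whether replicates were separate cultures, so the p-values measure differences against the spread between these libraries, which may be technical.

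Reads per library ran from 16918432 to 26466536, and total RNA had been depleted of ribosomal RNA before sequencing. The target, listed as AC005736.1, was counted 49, 56 and 62 times in the controls, 36, 49 and 38 times where the label is gRNA1 and 61, 60 and 42 times where it is gRNA2. Its level with gRNA1 was 0.745-fold (95% interval 0.588 to 0.943, adjusted p = 0.128) and with gRNA2 0.945-fold (95% interval 0.753 to 1.19, adjusted p = 0.810), so repression of the target passed the test with neither guide. The lung epithelial label was matched by its markers: all 7 epithelial markers checked, among them KRT7 at 848.5 to 987 CPM (reads scaled to a common library size), were present in every library. With each guide 2 of the 7 fell (28.6%, where 3.58% and 4.75% of all genes tested fell). The summed level of the 7 was 3250 to 3500 CPM in the controls, 3090 to 3230 with gRNA1 and 2990 to 3250 with gRNA2. Of 6 fibroblast markers, 5 lay under 1 CPM in every library, and the summed fibroblast level was 1.66 to 1.93 CPM in the controls, 1.32 to 2.51 with gRNA1 and 1.69 to 2.16 with gRNA2. The 4 endothelial markers summed to 2.93 to 3.42 CPM in the controls and 5.12 to 5.47 and 3.93 to 4.50 with the guides, with CDH5 alone past the threshold, and the 5 blood cell markers summed to 59.6 to 72.6 CPM over the 9 libraries, most of it CD68.

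Levels between genes were compared per transcript length, as TPM (a library's reads shared out over transcripts in proportion to their number per length) summed over protein-coding transcripts only and given as mean ± SD over the 3 controls. On this scale, the beta subunit shared by most matrix-binding integrins, ITGB1, had the highest level of all members at 147 ± 8.36 TPM. Its laminin-binding partner ITGA3 followed at 104 ± 4.43 TPM, and 2 laminin chains, LAMB3 at 61.0 ± 2.53 TPM and LAMC1 at 57.0 ± 4.55 TPM, came next with SDs that overlap. ITGA6, a laminin receptor subunit, stood at 51.0 ± 1.29 TPM, below LAMB3 and with a range that met that of LAMC1. Much of the LAMC1 level lay on a short annotated form: the coding transcript LAMC1-205 (657 bases) was at 25.5 ± 3.35 TPM and LAMC1-201 (7889 bases) at 31.5 ± 1.30 TPM, with 3.94% and 83.4% of the gene's reads.

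Below these lay ITGA2, a collagen receptor subunit (34.9 ± 1.62 TPM), ITGAV, which pairs with several beta subunits and binds RGD motifs (33.1 ± 1.71 TPM), ITGB5 (30.8 ± 3.22 TPM), LAMB2 (30.0 ± 1.70 TPM) and LAMA3 (28.2 ± 2.13 TPM), each with a mean ± SD that overlaps that of the next. ITGA5, the fibronectin receptor subunit, was at 21.0 ± 1.08 TPM, and LAMA5, a laminin alpha chain, was at 12.7 ± 0.684 TPM. The only collagen in this upper group was COL18A1, a basement membrane collagen, at 18.2 ± 0.857 TPM. The next collagens, COL6A1 (5.94 ± 0.418 TPM), the hemidesmosomal COL17A1 (5.21 ± 1.00 TPM) and the fibrillar COL1A1 (4.47 ± 0.293 TPM), each overlapped the next within their SDs.

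Subunits that pair in known dimers differed widely in level. ITGB4, the partner of ITGA6 in hemidesmosomes, had 3.03 ± 0.556 TPM, and the ITGAV partners ITGB3, ITGB6 and ITGB8 had 3.29 ± 0.233 TPM, 2.96 ± 0.924 TPM and 0.191 ± 0.0176 TPM. In the trimer of LAMA5, LAMB1 and LAMC1, the beta chain LAMB1 was far below its partners at 0.735 ± 0.0851 TPM, while LAMB2, the other beta chain that joins LAMA5 and LAMC1, was at the level given above. The muscle laminin chain LAMA2 (0.0884 ± 0.0212 TPM) and LAMA4 (0.0522 ± 0.0390 TPM) were near the bottom of the family, and LAMA1 had reads (359 in all) but 0 TPM on protein-coding transcripts in every library.

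**Figure D1:**
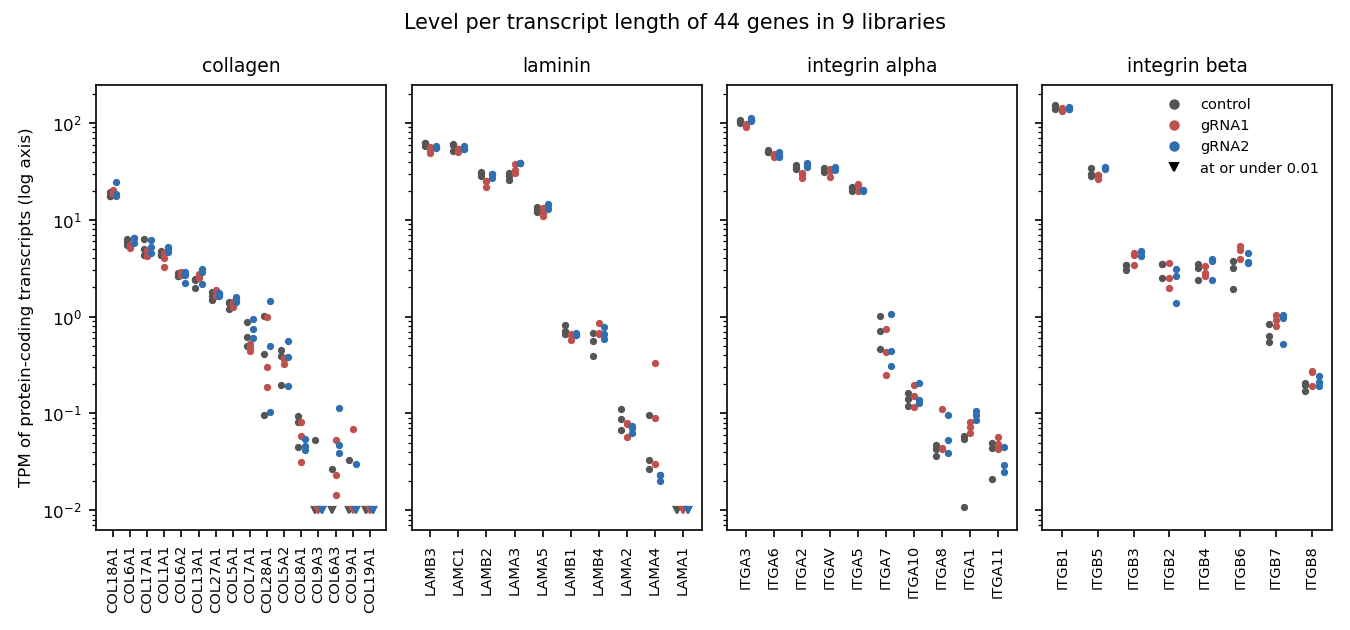
TPM of protein-coding transcripts (log axis) for 44 of the 45 members in each of the 9 libraries, by family and in order of the control mean. Grey points are controls, red gRNA1, blue gRNA2, and triangles mark values at or under 0.01. ITGB1 and ITGA3 are the only genes near 100 TPM, and collagens other than COL18A1 lie under 10 TPM.

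Summed over protein-coding transcripts, integrin alpha subunits made up 35.9% ± 1.21 of the members' TPM in the controls, laminins 29.9% ± 0.316, integrin beta subunits 27.9% ± 1.01 and collagens 6.34% ± 0.249 (SD, n = 3). The shares with gRNA1 were 35.1% ± 1.06, 29.6% ± 0.754, 28.6% ± 1.44 and 6.72% ± 0.255, and with gRNA2 35.5% ± 0.521, 30.1% ± 0.441, 27.5% ± 0.368 and 6.81% ± 0.529. On this scale the collagen mean with gRNA1 lay above the control mean by more than the larger SD of the groups compared. With gRNA2 the collagen mean lay above it by more than the SD of the controls but less than the SD of gRNA2. No other family's mean moved by more than the larger SD of the groups compared. With all transcripts counted, the shares differed more: laminins went from 36.0% ± 0.436 in the controls to 35.3% ± 0.423 with gRNA1 and 34.6% ± 0.291 with gRNA2, integrin alpha subunits from 38.0% ± 0.804 to 38.4% ± 1.16 and 39.9% ± 0.486, integrin beta subunits from 19.4% ± 0.624 to 19.1% ± 1.23 and 18.45% ± 0.805, and collagens from 6.65% ± 0.121 to 7.20% ± 0.168 and 7.005% ± 0.359. The laminin means with both guides and the integrin alpha and beta means with gRNA2 thus differed from the controls by more than the SDs on all transcripts but not on protein-coding ones.

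Each comparison with the control asks which of these genes differ once the repressor is led to TRIDENT. Of the 45 members, 44 passed the filter on low counts and were tested with edgeR, all but ITGA8. With gRNA1, 9 of 44 members passed an adjusted p of 0.05 (20.5%), where 7.08% of all 19658 genes tested did, and 9.14% of those whose average log2 CPM was 1 or more. Of the 9, 2 were higher (ITGB6 and COL8A1; background 3.49%) and 7 lower (among them ITGA2, ITGA6, ITGB4, LAMB2, LAMB3 and LAMC1; background 3.58%). With gRNA2, 7 of 44 passed (15.9%; background 8.44%, and 11.1% where average log2 CPM was 1 or more): 4 were higher, ITGB6, ITGB3, COL8A1 and LAMA3 (background 3.69%), and 3 were lower, among them ITGA6 and LAMC1 (background 4.75%).

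The median log2 change of the 44 members was -0.025 with gRNA1 and -0.018 with gRNA2, beside 0 and 0.009 over all genes tested. All 3 libraries lay beyond all 3 controls for 17 members with gRNA1 (38.6%; 28.1% of all genes) and for 11 with gRNA2 (25%; 27.4%). Both comparisons use the same 3 controls, so their values are given side by side below and are not independent of each other. In RNA from whole cultures, fewer cells with a transcript and less of it per cell cannot be told apart.

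**Figure D2:**
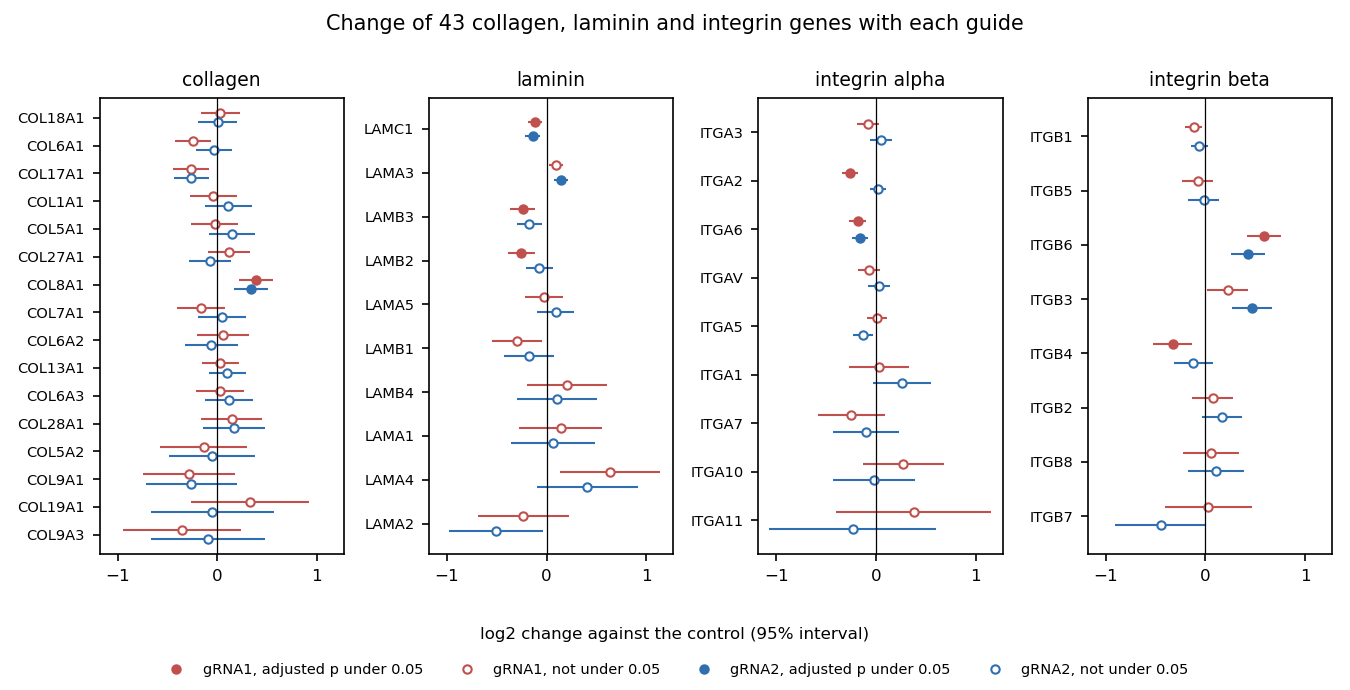
Log2 change against the control with its 95% interval for 43 of the 44 tested members, by family and in order of total reads, for gRNA1 (red) and gRNA2 (blue); filled points passed an adjusted p of 0.05. ITGB6 lies farthest to the right among filled points, the filled laminin points lie left of 0 except LAMA3, and intervals widen toward the bottom of each panel, where reads are few.

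Among laminins, LAMB2, LAMB3 and LAMC1 were lower with gRNA1, LAMC1 was also lower with gRNA2, and LAMA3 was higher with gRNA2. Of the 11 laminins, 4 fell and none rose with gRNA1, and 2 fell and 1 rose with gRNA2 (36.4% and 27.3% of the family in either direction, beside 7.08% and 8.44% of all genes); the family median log2 change was -0.119 and -0.074. LAMA3 and LAMB3 are chains of the same epithelial laminin, and in the fit of all 9 libraries neither passed where the other did. Each moved in the same direction with both guides, LAMA3 up and LAMB3 down. Neither was shown to differ between the guides (edgeR, adjusted p = 0.4745 for LAMA3 and 0.6275 for LAMB3).

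LAMB3 (ENSG00000196878.14, chr1:209614870-209652466, minus strand), the beta chain of that laminin, was at 254, 229 and 229 CPM in the controls, 198, 196 and 209 with gRNA1 and 231, 206 and 193 with gRNA2. The gRNA1 libraries lay below all controls, whereas gRNA2 library 1 lay among them. With gRNA1 the level was 0.847-fold (95% interval 0.776 to 0.926, adjusted p = 0.0269). The call was lost without control 1 or 3 or gRNA1 library 1 or 2 (adjusted p 0.0513 to 0.113) and on protein-coding transcripts alone (0.0921). In every library 100% of LAMB3 reads were on protein-coding transcripts, so its own counts did not change in that last fit. With gRNA2 the level was 0.886-fold (95% interval 0.811 to 0.968, adjusted p = 0.0868), which passed only after gRNA2 library 1 was left out (0.00967), under DESeq2 (0.02) or in the 3 other settings named at the end.

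LAMA3 (ENSG00000053747.16, chr18:23689443-23956222, plus strand), its alpha chain, had 215, 211 and 207 CPM in the controls, 223, 228 and 226 with gRNA1 and 236, 232 and 232 with gRNA2. Here the order was reversed: every guide library was above every control. The change was 1.07-fold (95% interval 1.02 to 1.12, adjusted p = 0.0936) with gRNA1 and 1.10-fold (95% interval 1.05 to 1.16, adjusted p = 0.0146) with gRNA2. The gRNA2 call was lost without control 2 or 3 or gRNA2 library 2 (adjusted p 0.0511 to 0.077). The gRNA1 change passed on protein-coding genes alone (0.03485) and without control 1, gRNA1 library 3 and gRNA2 library 1 (0.0365). LAMA3 produces a long and a short chain from separate starts; the long transcript LAMA3-202 (10661 bases) held 73.3% of its reads, and the short LAMA3-201 (5671 bases) 2.39%.

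LAMC1 (ENSG00000135862.5, chr1:183023460-183145592, plus strand), the gamma chain found in most laminins, was at 358, 352 and 340.1 CPM in the controls, 314, 322 and 331.7 with gRNA1 and 318, 317 and 316 with gRNA2. Each guide library was below each control. Its level was 0.921-fold (95% interval 0.876 to 0.969, adjusted p = 0.0493) and 0.907-fold (95% interval 0.862 to 0.953, adjusted p = 0.0193). The gRNA1 call was lost without any of the libraries other than gRNA1 library 3 and gRNA2 library 1 (adjusted p 0.0607 to 0.174), and the gRNA2 call without control 1 or 2 or gRNA2 library 2 or 3 (0.0563 to 0.0946). The length offset, which takes each gene's average transcript length into the fit, ended both (0.582 and 0.720). The gRNA1 call was also lost with RLE scaling (0.0537), no filter on low counts (0.0555), only the 2 groups compared (0.0687), protein-coding genes alone (0.0865) and protein-coding transcripts alone (0.0921).

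LAMB2 (ENSG00000172037.13, chr3:49121114-49133118, minus strand), the beta chain that pairs with LAMC1, had 180.3, 155 and 158 CPM in the controls, 134, 135 and 144 with gRNA1 and 170.2, 153 and 145 with gRNA2. The fall was seen with gRNA1, where all libraries lay below the controls, at 0.838-fold (95% interval 0.763 to 0.920, adjusted p = 0.0266). It was lost without control 1 or 3 or gRNA1 library 1 or 2 (adjusted p 0.0522 to 0.108) and on protein-coding transcripts alone (0.105). With gRNA2 the level was 0.950-fold (95% interval 0.865 to 1.04, adjusted p = 0.527). LAMA5, the most GC-rich laminin, was at 0.983-fold (0.863 to 1.12) and 1.06-fold (0.934 to 1.21), and LAMB1 at 0.815-fold (0.683 to 0.972) and 0.887-fold (0.745 to 1.05). LAMA4, with 346 reads in all, had 1.56-fold (1.10 to 2.20) with gRNA1, the largest point estimate among members that did not pass.

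Among integrin alpha subunits, ITGA2 and ITGA6 fell with gRNA1 and ITGA6 fell with gRNA2, while the 7 others tested did not pass in either comparison. These were 22.2% and 11.1% of the family, beside 7.08% and 8.44% of all genes in either direction. At an average log2 CPM of 1 or more, 9.14% and 11.1% of genes passed, so the gRNA2 share was no higher than that. ITGA2 (ENSG00000164171.10, chr5:52989326-53094779, plus strand), which with ITGB1 forms a receptor for collagens and laminins, was at 342, 365 and 350.1 CPM in the controls, 299, 295 and 284 with gRNA1 and 347, 358 and 369.5 with gRNA2. The gRNA1 libraries formed a separate low group, and the gRNA2 libraries lay among the controls. Its level with gRNA1 was 0.832-fold (95% interval 0.787 to 0.880, adjusted p = 0.000822), a call kept under every alternative run, and with gRNA2 1.02-fold (95% interval 0.962 to 1.07, adjusted p = 0.759).

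ITGA6 (ENSG00000091409.14, chr2:172427354-172506282, plus strand), the laminin-binding partner of ITGB1 and ITGB4, was at 311, 319 and 317 CPM in the controls, 274, 277 and 282 with gRNA1 and 269.8, 278 and 299 with gRNA2. All guide libraries were below the controls. Its level was 0.880-fold (95% interval 0.831 to 0.932, adjusted p = 0.0102) with gRNA1 and 0.894-fold (95% interval 0.844 to 0.947, adjusted p = 0.0189) with gRNA2. The gRNA1 call was lost without control 2 or gRNA1 library 2 (adjusted p 0.0658 to 0.0672), and the gRNA2 call without control 2 or 3 or gRNA2 library 1 or 2 (0.0625 to 0.122). Both were lost when the average transcript length was used as an offset (0.269 and 0.347), and that with gRNA2 also on protein-coding transcripts alone (0.0717).

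ITGA3, the most abundant alpha subunit, was at 817, 749.5 and 741 CPM in the controls, 719, 713 and 748 with gRNA1 and 868, 780.5 and 744 with gRNA2. Its groups overlapped, and its level was 0.945-fold (95% interval 0.875 to 1.02, adjusted p = 0.383) and 1.04-fold (95% interval 0.961 to 1.12, adjusted p = 0.587). ITGAV was at 0.950-fold (0.880 to 1.03) with gRNA1 and 1.02-fold (0.944 to 1.10) with gRNA2, and ITGA5 at 1.00-fold (0.937 to 1.08) and 0.916-fold (0.855 to 0.982). ITGA7, ITGA10 and ITGA11, with 694, 376 and 101.5 reads in all, had intervals that ran from 0.476 to 2.23 between them.

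Integrin beta subunits gave the highest folds among the members that passed. ITGB6 was higher with both guides, ITGB3 was higher with gRNA2, and ITGB4 was lower with gRNA1. With each guide this was 25% of the 8 tested, beside 7.08% and 8.44% of all genes in either direction. ITGB6 (ENSG00000115221.11, chr2:160099666-160200313, minus strand), which pairs only with ITGAV, was at 15.1, 18.4 and 15.6 CPM in the controls, 26.1, 25.3 and 22.9 with gRNA1 and 21.4, 21.8 and 23.3 with gRNA2. Every guide library was above every control, and the libraries of the guides overlapped. The change was 1.51-fold (95% interval 1.34 to 1.70, adjusted p = 0.000552) with gRNA1 and 1.34-fold (95% interval 1.19 to 1.52, adjusted p = 0.00497) with gRNA2, and both calls were kept when any library was left out. With a transcript length offset the folds were larger and did not pass (adjusted p 0.0737 and 0.201), nor did they on protein-coding transcripts alone (0.0598 and 0.240). That last setting rests on an uneven split: 100%, 96.2% and 62.0% of ITGB6 reads were on protein-coding transcripts in the controls. Of the 31-base words of ITGB6 transcripts, 18.9% also occur in other genes. Of its exonic bases 20.6% overlap AC092153.1, a gene on the same strand with 32 reads in all.

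ITGB3 (ENSG00000259207.7, chr17:47253846-47311816, plus strand), which joins ITGAV in the vitronectin receptor, had 14.9, 13.0 and 15.6 CPM in the controls, 15.2, 17.6 and 17.8 with gRNA1 and 21.4, 20.7 and 17.4 with gRNA2. The gRNA2 libraries were above all controls, and gRNA1 library 1 lay among the controls. Its level was 1.17-fold (95% interval 1.01 to 1.34, adjusted p = 0.191) with gRNA1 and 1.38-fold (95% interval 1.20 to 1.59, adjusted p = 0.00768) with gRNA2. The second call was kept without any of the libraries and lost with the length offset (0.117). ITGB3 shares 51% of its 31-base words with other genes, and 51.6% of its exonic bases overlap AC068234.1. That gene, on the same strand, had 93 reads in all, so reads could have been split between it and ITGB3.

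ITGB4 (ENSG00000132470.13, chr17:75721328-75757818, plus strand), whose long cytoplasmic tail binds plectin in hemidesmosomes, was at 19.1, 18.5 and 15.7 CPM in the controls, 14.8, 13.4 and 14.1 with gRNA1 and 17.9, 16.2 and 14.4 with gRNA2. The gRNA1 libraries lay below the controls, and those of gRNA2 overlapped them. With gRNA1 the level was 0.796-fold (95% interval 0.694 to 0.913, adjusted p = 0.0459) and with gRNA2 0.918-fold (95% interval 0.803 to 1.05, adjusted p = 0.451). The call was lost without control 1 or 2, any gRNA1 library or gRNA2 library 2 (adjusted p 0.0694 to 0.165), with the length offset (0.513), on protein-coding genes alone (0.0515) and on protein-coding transcripts alone (0.134). ITGB1 had 512, 543 and 555 CPM in the controls, 487, 496 and 501 with gRNA1 and 488, 518 and 538 with gRNA2, and its level with gRNA1, whose libraries were all below the controls, was 0.921-fold (95% interval 0.868 to 0.978, adjusted p = 0.0948), which did not pass; it passed with no filter on low counts (0.0408), with a replicate block (0.0446) and with the GC content and length correction (0.00184). ITGB5 was at 0.948-fold (0.851 to 1.06) and 0.989-fold (0.888 to 1.10). ITGB8, the other ITGAV partner, was at 1.04-fold (0.856 to 1.26) and 1.08-fold (0.886 to 1.31), and the leukocyte subunits ITGB2 and ITGB7 did not pass in either comparison.

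**Figure D3:**
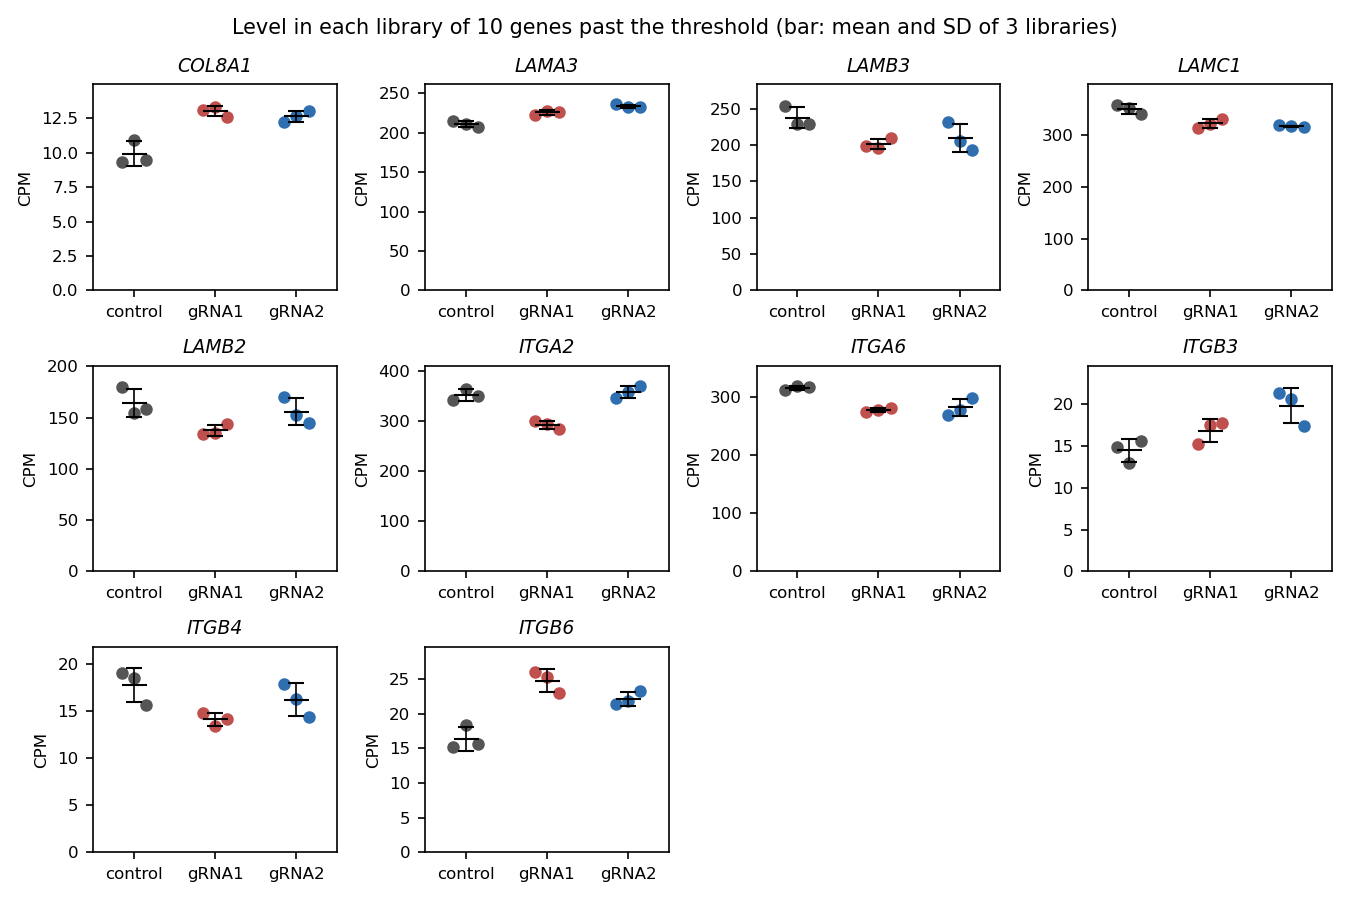
CPM in each library for 10 of the members that passed an adjusted p of 0.05 in any comparison; points are libraries and bars the mean and SD of 3, and each axis starts at 0. ITGB6 and COL8A1 are higher with both guides, LAMC1 and ITGA6 lower with both, ITGA2 and ITGB4 lower with gRNA1, and most shifts are small beside the level itself.

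The stretch before the transcription start is shown for ITGB6, which rose with both guides, and for ITGA2, ITGA6 and LAMC1, which fell with 1 or both, to show how unlike these starts are in base composition. These 4 were picked from the members that passed. LAMA3, LAMB2, LAMB3, ITGB3 and ITGB4, which passed with 1 guide, are not shown. A link between base composition and direction of change was not tested. RefSeq's table for GRCh38.p14 held entries for 33 of the 45 members; it has none for COL8A1. The 200 bases before the more upstream of the RefSeq start and the start of the leading GENCODE transcript are given 5′ to 3′ on the gene's strand, with each GC box (GGGCGG on either strand) in capitals; the ITGA6 window lies within the span of the gene, which opens with another transcript.
ITGB6, chr2:160200302-160200501, minus strand: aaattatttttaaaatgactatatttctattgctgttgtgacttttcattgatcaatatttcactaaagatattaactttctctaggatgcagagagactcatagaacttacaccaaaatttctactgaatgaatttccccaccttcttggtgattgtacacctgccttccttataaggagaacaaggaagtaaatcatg
ITGA2, chr5:52989126-52989325, plus strand: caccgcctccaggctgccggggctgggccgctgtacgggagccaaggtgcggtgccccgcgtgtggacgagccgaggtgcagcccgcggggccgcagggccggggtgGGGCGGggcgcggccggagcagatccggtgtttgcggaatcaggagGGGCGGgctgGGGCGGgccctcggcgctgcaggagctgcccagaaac
ITGA6, chr2:172427355-172427554, plus strand: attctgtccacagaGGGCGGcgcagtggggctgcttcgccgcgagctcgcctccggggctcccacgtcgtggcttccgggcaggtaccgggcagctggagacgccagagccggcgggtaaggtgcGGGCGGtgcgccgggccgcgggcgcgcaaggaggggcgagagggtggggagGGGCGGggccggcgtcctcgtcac
LAMC1, chr1:183023220-183023419, plus strand: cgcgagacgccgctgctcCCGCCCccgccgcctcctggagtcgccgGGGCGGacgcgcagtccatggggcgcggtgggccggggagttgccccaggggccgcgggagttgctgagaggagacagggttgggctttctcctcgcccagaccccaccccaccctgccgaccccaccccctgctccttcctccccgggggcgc
The ITGB6 stretch was 32% G or C, and 2.7% of the 35116 promoters in the table had less. Those of ITGA2, ITGA6 and LAMC1 were 77.5%, 76.5% and 77% G or C, above 91.9%, 90.2% and 91% of promoters. They held 3, 3 and 2 GC boxes, and ITGB6 held none in this window. The other motifs searched, on both strands, were the TATA box with the letters TATAAA, the sequence CCAAT of the box of that name, TGANTCA for the AP-1 site and GGAATG for the TEAD site, and none of the 4 windows held them. Over the first RefSeq start of each of the 33 members, 15 had a GC box, 3 a TATA box, 5 a CCAAT box, 1 an AP-1 site and 4 a TEAD site within 200 bases; the shares over all promoters were 40.1%, 8.6%, 28%, 5.4% and 9.5%.

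Among the 16 collagens, COL8A1 alone passed, with both guides and upward. This was 6.25% of the family, beside 7.08% and 8.44% of all genes in either direction and 3.49% and 3.69% upward. The family medians were 0.001 and -0.011 on the log2 scale. COL8A1 (ENSG00000144810.15, chr3:99638475-99799226, plus strand), a short network-forming collagen, was at 9.31, 10.96 and 9.47 CPM in the controls, 13.1, 13.3 and 12.6 with gRNA1 and 12.2, 12.6 and 13.0 with gRNA2. Each guide library was above each control. The change was 1.31-fold (95% interval 1.16 to 1.47, adjusted p = 0.00933) with gRNA1 and 1.27-fold (95% interval 1.13 to 1.43, adjusted p = 0.0176) with gRNA2. The first call was lost without control 3 (0.0513) and the second without control 1 or 3 or gRNA2 library 2 (0.0605 to 0.0807) or with the length offset (0.0768).

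Most COL8A1 reads were not assigned to the transcript that encodes the collagen chain. Of all reads of the gene, 96.6% were assigned to COL8A1-205, a transcript without an open reading frame annotated as a processed transcript, with 2964 bases in 3 exons on chr3:99638475-99680462, and 0 of its bases lie in any coding sequence of the gene. The protein-coding COL8A1-201 held 3.45%, or 80.3 reads over the 9 libraries. This coding transcript stood at 0.0732 ± 0.025 TPM in the controls, at 0.0569 ± 0.0246 in gRNA1 libraries and at 0.0475 ± 0.00614 in gRNA2 libraries (SD, n = 3). On protein-coding transcripts alone the log2 change was -0.37 with gRNA1 and -0.629 with gRNA2, with adjusted p of 0.692 and 0.443.

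COL17A1, the transmembrane collagen of hemidesmosomes, had 18.9, 16.5 and 17.1 CPM in the controls, 13.7, 13.7 and 16.4 with gRNA1 and 15.3, 14.4 and 14.0 with gRNA2. Its libraries of either guide lay below the controls, at 0.835-fold (95% interval 0.738 to 0.945, adjusted p = 0.0763) and 0.836-fold (95% interval 0.740 to 0.946, adjusted p = 0.0714), and neither passed. COL6A1 was at 0.845-fold (0.744 to 0.960) with gRNA1, all below the controls, and 0.980-fold (0.865 to 1.11) with gRNA2. COL18A1, the most abundant collagen, was at 1.02-fold (0.893 to 1.17) and 1.00-fold (0.877 to 1.15), with groups that overlapped. The remaining tested collagens with at least 2000 reads, COL1A1, COL5A1, COL7A1 and COL27A1, had folds from 0.892 to 1.11 with intervals that included 1.

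Most collagens that define a basement membrane were barely detected. The chains of type IV collagen, which forms its network, lie in head-to-head pairs that share a bidirectional promoter, and all 6 fell short of 90 reads. COL4A1 had 68.1 reads and its partner COL4A2 had 17, COL4A5 and COL4A6 had 15 and 5, and COL4A3 and COL4A4 had 1 and 0. The fibrillar collagen COL3A1 had 0, as did COL11A1 and COL22A1. Just inside the minimum was ITGA8 with 90.5 reads, and just outside were COL1A2 (87.4), LAMC3 (78.3) and ITGA9 (75). In all, 31 matching names fell short, 28 of them collagens, and 16 had 10 reads or fewer.

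Between the guides, 1 of 44 members passed, ITGA2 (2.27%; 6.22% of all genes, and 8.24% where average log2 CPM was 1 or more). ITGA2 was 1.22-fold (95% interval 1.16 to 1.29, adjusted p = 0.000386) in gRNA2 relative to gRNA1, with all gRNA2 libraries above all gRNA1 libraries, and was kept under every alternative (background 3.12% for higher, where the 0 lower members stand beside 3.1%). At an unadjusted p under 0.05 the count was 9. The libraries of the guides did not overlap for 7 members (15.9%; 23.8% of all genes). LAMB2 was 1.13-fold (95% interval 1.03 to 1.25, adjusted p = 0.117), ITGB3 was 1.18-fold (95% interval 1.03 to 1.36, adjusted p = 0.152) and ITGB6 was 0.892-fold (95% interval 0.795 to 1.00, adjusted p = 0.255). None of the 3 passed, so their folds against the control were not shown to differ between the guides in this fit. LAMB2 did pass under DESeq2 (0.0455), with no filter on low counts (0.00355) and with the GC content and length correction (0.00135).

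Salmon assigns reads to single transcripts, and for 24 members with at least 2000 reads the share on protein-coding transcripts was set beside the total. This share carries no test. Of the 24 members, 22 had reads on both kinds of transcript, and the background is the 8161 genes of that depth that also did. The share was below every control in all gRNA1 libraries for 4 of the 24 members (background 8.7%) and above for 2 (4.57%). With gRNA2 it was below for 4 (14.5%) and above for 1 (2.82%). ITGA3 was in the first group with both guides: 70.2%, 69.5% and 70.1% of its reads were on protein-coding transcripts in the controls, 66.2%, 65.9% and 67% with gRNA1 and 66.6%, 65% and 65.8% with gRNA2. The lowest control was thus above the highest guide library. The largest of its other transcripts were retained-intron forms, and ITGA3-216, a single-exon transcript of 2495 bases, went from 4.58% ± 0.092 in the controls to 5.21% ± 0.154 and 5.74% ± 0.258 (SD, n = 3).

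For LAMC1 the protein-coding share was 87.8%, 88.4% and 87.8% in the controls, 87.2%, 87.7% and 85.9% with gRNA1 and 87.5%, 87.4% and 85.4% with gRNA2. For ITGA2 the share of ITGA2-206, a transcript annotated as a target of nonsense-mediated decay, was 7.91%, 5.77% and 5.88% in the controls, 4.90%, 5.96% and 6.32% with gRNA1 and 3.96%, 4.16% and 4.34% with gRNA2. All gRNA2 libraries lay below all others. In COL18A1, the protein-coding COL18A1-203 (6586 bases) had 0%, 1.42% and 1.92% of the reads in the controls, 2.81%, 5.63% and 6.17% with gRNA1 and 8.66%, 8.40% and 12.2% with gRNA2, so the 3 groups did not overlap, while COL18A1-204 held 75% of all its reads. LAMA5 and COL1A1 were below the controls with gRNA1: the share of LAMA5 was 84.2%, 84.0% and 84.8% in the controls, 81.4%, 82.6% and 82.0% with gRNA1 and 85.3%, 84.7% and 83.8% with gRNA2. These shares are estimates from reads that fit several transcripts.

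**Figure D4:**
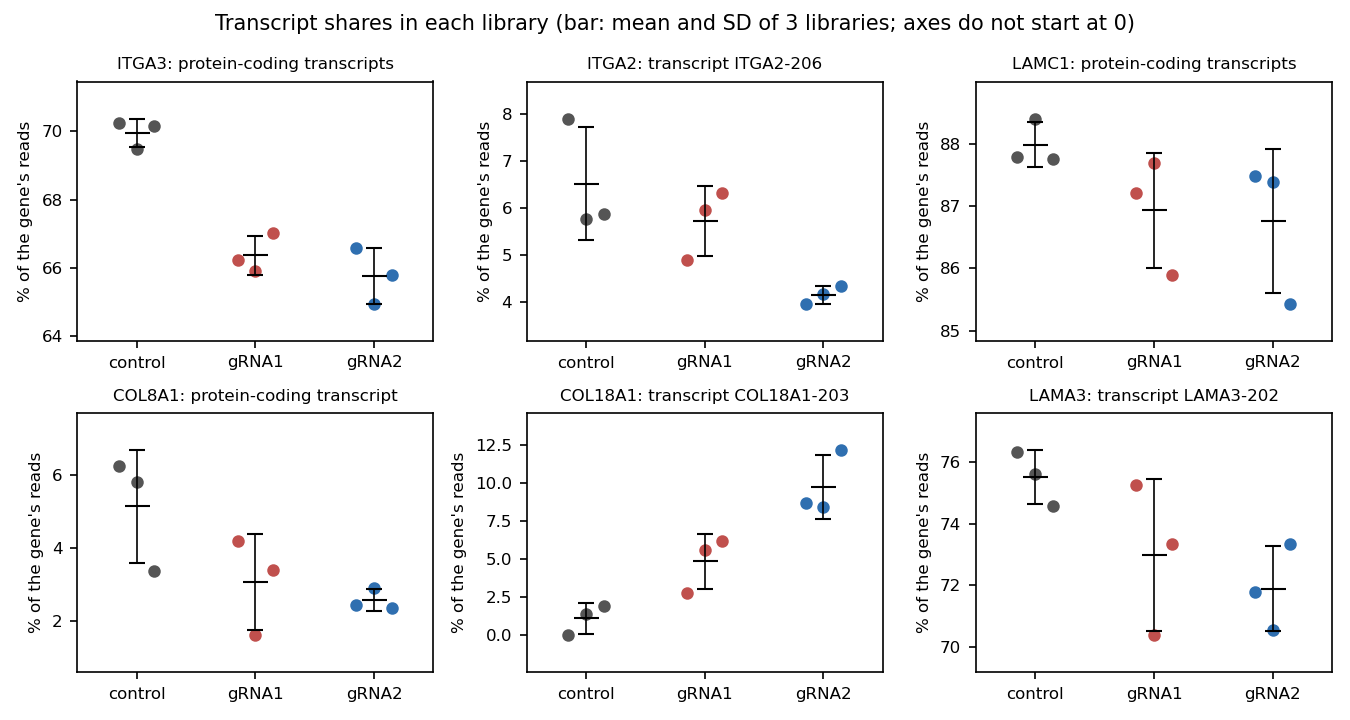
Share of a gene's reads on its protein-coding transcripts (ITGA3, LAMC1, COL8A1) or on a single transcript (ITGA2-206, COL18A1-203, LAMA3-202), in percent, for each library, with the mean and SD of 3; axes do not start at 0. ITGA3 lies at 69.5% or more in the controls and at 67% or less with both guides, and COL18A1-203 lies at 1.92% or less in the controls and at 8.40% or more with gRNA2.

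Libraries of a group were not alike in their GC-rich members. The deviation of each library from its group mean was read for members at a mean of at least 2 CPM. Of 16 members with 55% G or C or more, 14 lay above the group mean in control 1 (median log2 deviation 0.104), 15 in gRNA1 library 3 (0.078) and 16 in gRNA2 library 1 (0.158), whereas 1 did in gRNA2 library 3 (-0.118). The 9 members under 45% moved little, with medians between -0.046 and 0.045. Among the genes that passed, LAMB3 (59.4% GC), LAMB2 (59.7%) and ITGB4 (63.1%) are GC-rich. Without control 1, gRNA1 library 3 and gRNA2 library 1, chosen after the data were seen, 12, 8 and 5 members passed in the 3 comparisons, among them 8 of the 9, 6 of the 7 and the 1 named above. Between the guides, 1756 of all 19905 genes tested passed in that fit.

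**Figure D5:**
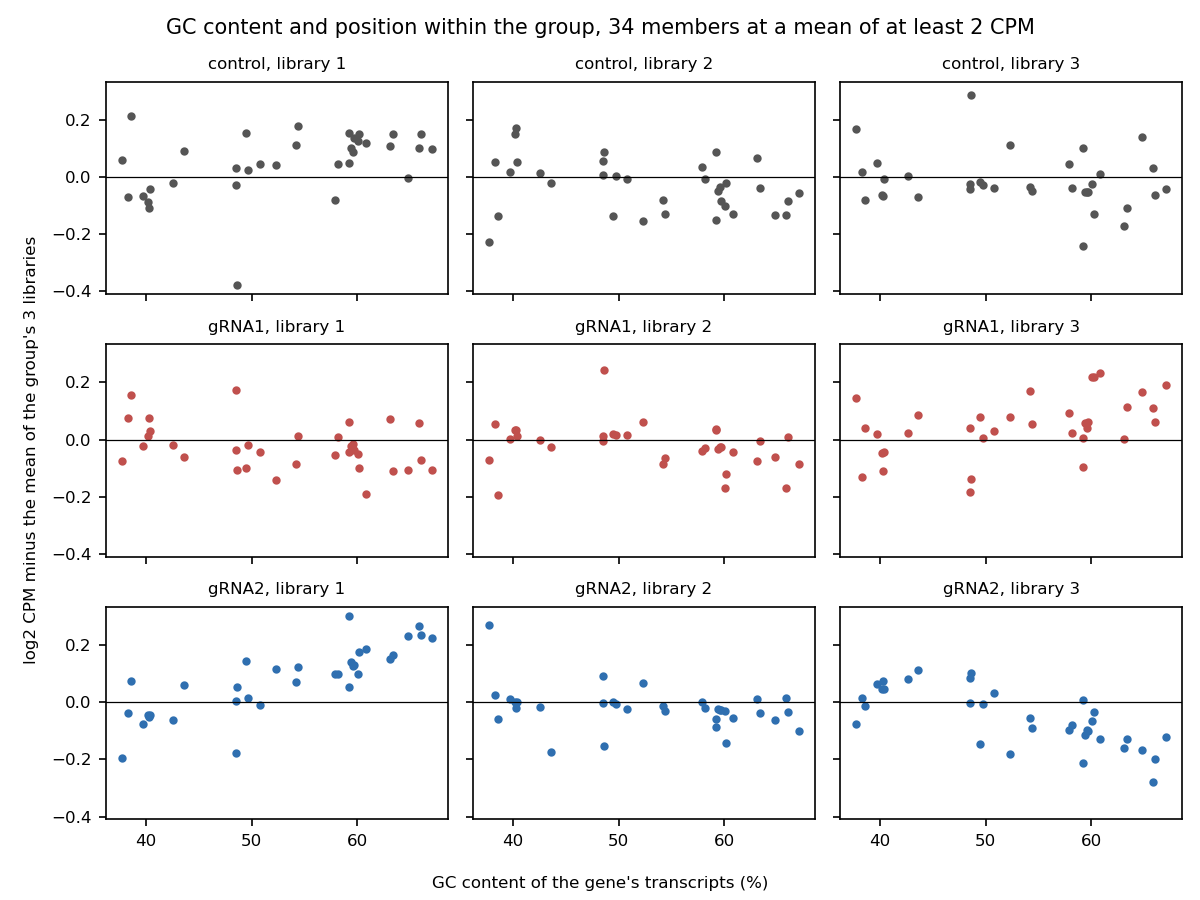
GC content of each member's transcripts (%) against its log2 CPM minus the mean of its group's 3 libraries, for members at a mean of at least 2 CPM, with a panel for each library. Points slope upward in control library 1, gRNA1 library 3 and gRNA2 library 1, and downward in gRNA2 library 3.

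Other genes of matrix and adhesion were read from 5 lists. Of 28 tested genes for collagen folding and crosslinking, 7 fell and 0 rose with gRNA1 and 6 fell and 0 rose with gRNA2, with median log2 changes of -0.113 and -0.069, beside 0 and 0.009 over all genes. These were 25% and 21.4% of the list, where 7.08% and 8.44% of all genes passed in either direction, and 9.14% and 11.1% of those at an average log2 CPM of 1 or more. PXDN, a peroxidase that crosslinks type IV collagen, was 0.544-fold (adjusted p = 0.00190) with gRNA1 and 0.713-fold (adjusted p = 0.0375) with gRNA2. LOXL2, a lysyl oxidase, was 0.860-fold (adjusted p = 0.00877) and 0.695-fold (adjusted p = 1.15e-05), and the prolyl hydroxylase P3H2 was 0.790-fold (adjusted p = 0.000558) and 0.882-fold (adjusted p = 0.0234). P4HA1, a subunit of prolyl hydroxylase, was 0.835-fold (adjusted p = 0.00479) with gRNA2.

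Of 13 other basement membrane and matrix genes, THBS1 and SPARC fell with gRNA1 and fibronectin, FN1, rose with gRNA2 at 1.31-fold (adjusted p = 1.38e-05); the list's shares were 15.4% and 7.69%, and its medians -0.103 and -0.005. Of 13 non-integrin matrix receptors, 6 fell with gRNA1 and 3 with gRNA2, among them the hyaluronan receptor CD44 (0.875-fold, adjusted p = 0.00274, and 0.901-fold, adjusted p = 0.0111) and the laminin receptor DAG1 (0.868-fold, adjusted p = 0.00744, and 0.868-fold, adjusted p = 0.00688), and BCAM, which binds LAMA5, rose with gRNA2 (1.35-fold, adjusted p = 0.00143). In all 46.2% and 30.8% of the receptors passed, and their medians were -0.131 and -0.043. Of 37 focal adhesion and adaptor genes, 3 rose and 3 fell with gRNA1 and 2 rose and 3 fell with gRNA2, with medians of -0.028 and -0.029; their shares were 16.2% and 13.5%, the second near the 11.1% above. TNS4, a tensin that binds integrin beta tails, rose most, at 2.07-fold (adjusted p = 0.000120) and 1.39-fold (adjusted p = 0.0292). Of 6 integrin genes outside the naming rule, ITGBL1 fell with gRNA1 (0.738-fold, adjusted p = 0.0493) and ITGAX rose with gRNA2 (1.45-fold, adjusted p = 0.00396), with medians of 0.041 and 0.125.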

How the data were processed

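RNA from 9 libraries in 3 groups of 3 was analysed, with groups taken from the labels. Per the submitters' processing notes, the authors used Salmon 1.4.0 and hg38. Each deposited table gives, per the file headers, an estimated count of reads (expected count) and a TPM for 211939 transcripts, with lengths; whether strand was used is not given in the sources used here. Of the transcripts, 95.7% matched GENCODE 29, and 1.26% to 1.33% of reads, on the others, were left out. The deposited estimated counts were summed per gene and rounded.

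edgeR 4.0.16 under R 4.3.3 was run after filterByExpr and TMM scaling, with two-sided quasi-likelihood F tests in a single fit of all 9 libraries, with Benjamini-Hochberg adjustment over the 19658 genes tested and a threshold of 0.05. The test was checked on simulated data. CPM used TMM-scaled library sizes, and TPM values entered no test. Precision follows depth, from 90.5 to 150162 reads per member in all; each interval reflects both counting error and the variation that edgeR estimates among libraries.

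The members and lists were chosen with earlier results of these data known. Named were members past the threshold, the 3 with the highest mean TPM in each family, the type IV collagens, chains and subunits of known laminins and dimers, members at the minimum, and up to 4 genes of each list by lowest adjusted p; 2 genes that this rule names are not reported here. Transcripts and GC-rich libraries were chosen after their values were seen. Alternatives were DESeq2 1.42.0, RLE scaling, no filter, a replicate block, fits of only the 2 groups compared, a transcript length offset, a GC content and length correction, protein-coding genes alone and each library left out. Added after the data were seen were protein-coding transcripts alone and a fit without 3 libraries. Sums and figures were made in Python 3.11.15 (pandas 2.3.3, matplotlib 3.10.9, numpy 2.4.6).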

Additional observations from a re-analysis of the deposited data

How the results depend on the processing

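Alternatives were run for the members that passed and those the naming rule fixed, 21 genes in all, and among these no change that passed reversed except that of COL8A1, which became -0.37 with gRNA1 and -0.629 with gRNA2 on protein-coding transcripts alone, an alternative chosen after the data were seen, since nearly all its reads lie on another transcript. Members passing numbered 9, 7 and 1 for gRNA1, gRNA2 and gRNA2 against gRNA1. Between the guides the count was 2 under DESeq2 and 4 with no filter on low counts. With the transcript length offset the counts were 6, 1 and 2, with the GC content and length correction 13, 13 and 6, which kept all of the 9, 7 and 1, on protein-coding transcripts alone 3, 3 and 1, and without the 3 libraries in which GC-rich members lay high 12, 8 and 5; the cause was not tested. Leaving out each library in turn gave 4 to 9, 2 to 7 and 1 to 2. Over all genes tested, 1391, 1659 and 1222 passed, and with the offset 538, 434 and 446. With the GC content and length correction 3536 of 19658 genes passed with gRNA2 and 2683 between the guides, so calls rose over all genes too. Between the guides, 1199 of 19658 passed under DESeq2, 1777 of 35716 with no filter and 1756 of 19905 without the 3 libraries. On protein-coding transcripts alone 629 and 856 of 13236 passed with gRNA1 and gRNA2.

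A replicate block gave 9, 6 and 1 members, and ended, among others, the call of LAMC1 with gRNA1 (adjusted p 0.0702), while ITGB1 with gRNA1 passed (0.0446). Same-numbered libraries correlated between -0.161 and 0.207 and differently numbered ones between -0.254 and 0.236. Pairing by number was thus not shown, but these values cannot exclude it, and the labels do not say. LAMB3 with gRNA2 passed with no filter (0.00148), with the GC content and length correction (0.00114) and without the 3 libraries (0.00191). The same 3 settings passed ITGB1 with gRNA1 (0.0408, 0.00184 and 0.00164), COL6A1 with gRNA1 (0.00686, 0.0247 and 0.0279), and LAMB2 (0.00355, 0.00135 and 0.0194) and ITGA3 (0.0149, 0.000932 and 0.0318) between the guides. The GC content and length correction also passed ITGAV with gRNA1 (0.0140), ITGA3, ITGB1 and LAMA5 with gRNA2 (0.00300, 0.0155 and 0.0263) and COL6A1 between the guides (0.0165), and the length offset passed ITGAV with gRNA1 (0.0309) and between the guides (0.0104). ITGB4 with gRNA1 was lost without the 3 libraries (0.0857). LAMA3 with gRNA1 passed without them (0.0365) and on protein-coding genes alone (0.03485). In the controls, the family shares of all TPM were 6.65% for collagens, 38% for integrin alpha, 19.4% for integrin beta and 36% for laminins, of protein-coding TPM 6.34%, 35.9%, 27.9% and 29.9%, and of reads, not per length, 6.02%, 45.5%, 17.5% and 31%. With control libraries left out in turn they stayed within 6.58% to 6.69%, 37.6% to 38.4%, 19% to 19.6% and 35.8% to 36.3%. Of the 45 members, 12 had under 500 reads in all.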
